A study of Kandelia obovata with 24 samples.

Results

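DN13229_c0_g1 is a unigene of the mangrove *Kandelia obovata*, that is, a gene-level cluster of transcripts assembled without a reference genome, and it is named phenylalanine ammonia-lyase (PAL) in the annotation of the study. It is 1 of 33344 unigenes in the expression table and 1 of 21523 that reached 1 TPM (a transcript abundance scaled by length and library total) in at least 3 libraries. The unigene was chosen by values of these same libraries, since the study lists it as a hub of MEgrey. The study counts MEgrey as a module of its co-expression network, and neither status was checked here. That network was built on unigenes differing between the ABA-100 and CK groups at -4.1 and -5.3 ℃. Unigenes of low expression (TPM < 10) were discarded before it, and how that limit was applied is not stated. PAL reached 10 TPM in 3 libraries only, all of CK (10.2 ℃) or CK (-4.1 ℃). Its high CK values may thus have entered the choice as well. Its levels and differences are therefore given as a description, with no test. The table pairs no unigene with a gene name, so the other enzymes of the pathway were not analysed here, and no other unigene of the table has an identifier beginning with DN13229.

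PAL removes ammonia from L-phenylalanine to give trans-cinnamic acid, the entry step of the phenylpropanoid pathway. Lignin, flavonoids and many phenolic defence compounds are made from this product. In flowering plants PAL is generally encoded by a small gene family, and its transcripts are known to respond to wounding, pathogens, light and cold. A single unigene may thus stand for 1 member of a family.

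Leaves were collected in the field during a natural frost, and RNA-Seq was performed on 8 groups of 3 libraries. CK seedlings were assigned abscisic acid (ABA), a plant hormone of drought and cold responses, at 0 mg per litre. ABA-100 seedlings were sprayed with ABA at 100 mg per litre, the highest concentration of the experiment. Both were sampled at 10.2 ℃ before the frost, at -4.1 and -5.3 ℃ during it, and at 9.7 ℃ after it. A group is named by its treatment with its temperature, as in CK (10.2 ℃). The methods place the spraying after the sampling at 10.2 ℃, so ABA-100 (10.2 ℃) leaves had not yet been sprayed. The same seedlings were sampled at each stage. Each temperature had its own sampling time, so temperature and time after spraying cannot be told apart. The stated hour of the day is the same for the samplings at 10.2 and 9.7 ℃ and differs for the freezing ones, where hour cannot be told apart from temperature either. In whole leaves, fewer cells of a type and less RNA per cell cannot be told apart either.

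Each library held 25523 to 27061 unigenes above 0, and the TPM of a library summed to 999999 to 1000001. The number of reads behind each value is unknown. The labels do not say what a replicate is, and the methods name biological replicates. In each group 1 pair of libraries was closer than the other pairs. Over the 1174 unigenes with a mean of at least 100 TPM, the SD of the log2 ratio between libraries was 0.0800 to 0.147 in the closest pair and 0.137 to 0.398 in the other pairs. The closest pair was replicates 1 and 2 in 7 of 8 groups, and replicates 2 and 3 in ABA-100 (9.7 ℃). Whether these pairs came from the same plants could not be told from the labels.

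The group labels carry a doubt. DN25514_c0_g1 was at 888 ± 103 TPM in CK (10.2 ℃) and at 176 ± 34.2 TPM in CK (-4.1 ℃) (SD, n = 3). DN1735_c0_g1 was at 6.11 ± 1.42 and 2.10 ± 0.46 TPM in the same groups. In the volcano plot of the study that is titled with this pair of groups, both unigenes are drawn as up-regulated. The labels are used below as they stand, with every library kept in its own group, and every comparison rests on them.

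The PAL unigene was detected in every library, at a low to moderate level that was highest in the CK leaves of the first freezing sampling. Its TPM over the 24 libraries had a median of 3.04, a lowest value of 0.88 in ABA-100 (-4.1 ℃) replicate 3 and a highest value of 47.48 in CK (-4.1 ℃) replicate 3. These extremes differ 54.0-fold. Of the 24 libraries 3 were at 10 TPM or more and 20 were below 5 TPM. In CK (-4.1 ℃) replicate 3 the unigene ranked 3278 of 25534 detected unigenes by TPM, and in ABA-100 (-4.1 ℃) replicate 3 it ranked 17692 of 25523.

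In CK leaves at 10.2 ℃ the unigene was at 4.15, 4.02 and 10.78 TPM in replicates 1, 2 and 3 (6.32 ± 3.87, mean ± SD, n = 3). At -4.1 ℃ the CK libraries were at 9.65, 10.43 and 47.48 TPM (22.5 ± 21.6, n = 3). In both groups replicate 3 stood above a pair of nearly equal libraries, and the range at -4.1 ℃ reached into that at 10.2 ℃. At -5.3 ℃ the CK libraries were at 4.29, 4.26 and 3.47 TPM (4.01 ± 0.465, n = 3). At 9.7 ℃ they were at 2.02, 1.97 and 1.41 TPM (1.80 ± 0.339, n = 3). These last groups were narrow, and every CK library at 9.7 ℃ was below every CK library of the other temperatures.

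In ABA-100 leaves at 10.2 ℃, before spraying, the unigene was at 2.86, 3.96 and 3.21 TPM (3.34 ± 0.562, n = 3). At -4.1 ℃ the ABA-100 libraries were at 0.99, 1.19 and 0.88 TPM (1.02 ± 0.157, n = 3). This was the lowest group mean. At -5.3 ℃ they were at 1.47, 1.17 and 1.45 TPM (1.36 ± 0.168, n = 3), a range that overlapped with the one at -4.1 ℃. At 9.7 ℃ they were at 3.34, 2.74 and 2.22 TPM (2.77 ± 0.560, n = 3), back within the range of the 10.2 ℃ libraries for 1 library and below it for the others.

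**Figure D1:**
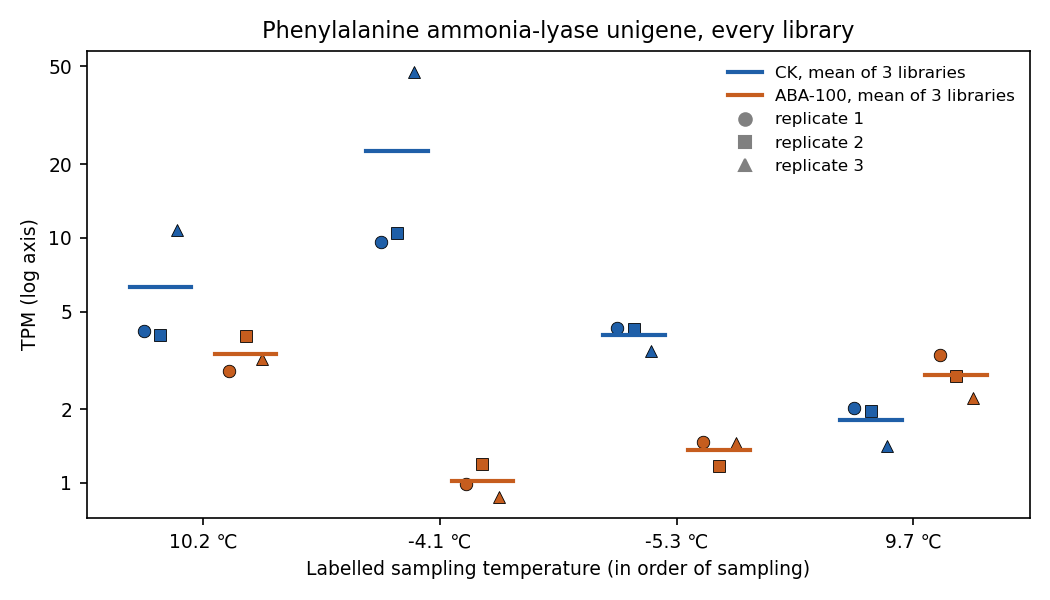
TPM of the PAL unigene (log axis) in each of the 24 libraries by labelled sampling temperature, CK in blue and ABA-100 in orange, with circles, squares and triangles for replicates 1, 2 and 3 and lines for the mean of 3 libraries. CK (-4.1 ℃) replicate 3 at 47.48 TPM and CK (10.2 ℃) replicate 3 at 10.78 TPM stand above the other libraries of their groups, and the ABA-100 (-4.1 ℃) libraries are at 0.88 to 1.19 TPM.

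Ordered by mean, the groups ran from CK (-4.1 ℃) through CK (10.2 ℃), CK (-5.3 ℃), ABA-100 (10.2 ℃), ABA-100 (9.7 ℃), CK (9.7 ℃) and ABA-100 (-5.3 ℃) to ABA-100 (-4.1 ℃). Of the 7 neighbouring pairs in this order 6 overlapped in their libraries. The exception was ABA-100 (9.7 ℃), whose lowest library at 2.22 TPM was above the highest CK (9.7 ℃) library at 2.02 TPM. Over all 28 pairs of groups, 22 did not overlap, against a median of 11 over the unigenes kept, of which 4.47% had as many or more.

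ABA-100 was compared with CK at each temperature. The treatments were on different seedlings, so at any given temperature the hormone cannot be told apart from other differences between those seedlings. The unigene was lower in ABA-100 than in CK at -4.1 and -5.3 ℃, the contrasts that entered its choice, and higher in ABA-100 at 9.7 ℃. Differences are of mean log2(TPM + 1), with a standard error (SE) from the SDs of both groups, and a scale with a pseudocount understates the change of low values. At -4.1 ℃ the difference was -3.16 (SE 0.72, n = 3 and 3), with a CK mean 22.1-fold and a CK median 10.5-fold above those of ABA-100. The groups did not overlap, and 27.9% of the unigenes kept had non-overlapping groups with ABA-100 lower in this contrast. Without CK (-4.1 ℃) replicate 3 the CK mean was 9.84-fold higher, and the log2 difference was -2.45. With every library included, a difference of -3.16 or lower was found in 0.0279% of the unigenes kept, PAL among them. The median difference over the unigenes kept was -0.09.

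At -5.3 ℃ the difference was -1.08 (SE 0.10), a CK mean 2.94-fold above that of ABA-100. The groups did not overlap, as was so for 34.3% of unigenes in the same direction, and 1.89% of unigenes were as low. The whole set of unigenes had a median of -0.15 here, and the difference of PAL was -0.95 after median-of-ratios scaling brought that median to 0.

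At 9.7 ℃ the difference was 0.42 (SE 0.16), an ABA-100 mean 1.54-fold above that of CK. The groups did not overlap, as was so for 22.4% of unigenes in the same direction, and 18.2% of unigenes were as high. With quantile normalization the difference was 0.22 and the groups overlapped.

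At 10.2 ℃, before any spraying, the difference was -0.64 (SE 0.42), with a CK mean 1.89-fold and a CK median 1.29-fold above those of ABA-100. The groups were separated by a gap from 3.96 to 4.02 TPM only, and 36.4% of unigenes had non-overlapping groups in that direction. With median-of-ratios scaling and with quantile normalization these groups overlapped. Without CK (10.2 ℃) replicate 3 the difference was -0.24. The unsprayed groups therefore already differed in mean, by a size that 1 library set.

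The difference between ABA-100 and CK was lower at -4.1 ℃ than at 10.2 ℃, with a difference of differences of -2.52 (SE 0.83). The same value was -0.44 (SE 0.43) for -5.3 ℃ and 1.06 (SE 0.45) for 9.7 ℃ against 10.2 ℃. The value for -5.3 ℃ is about as large as its SE. Without CK (10.2 ℃) replicate 3 the values were -0.85 for -5.3 ℃ and 0.66 for 9.7 ℃, and without replicate 1 or 2 of that group the value for -5.3 ℃ was -0.25 or -0.23. Against the freezing samplings, the difference at 9.7 ℃ was higher by 1.51 (SE 0.19) than at -5.3 ℃ and by 3.59 (SE 0.73) than at -4.1 ℃.

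**Figure D2:**
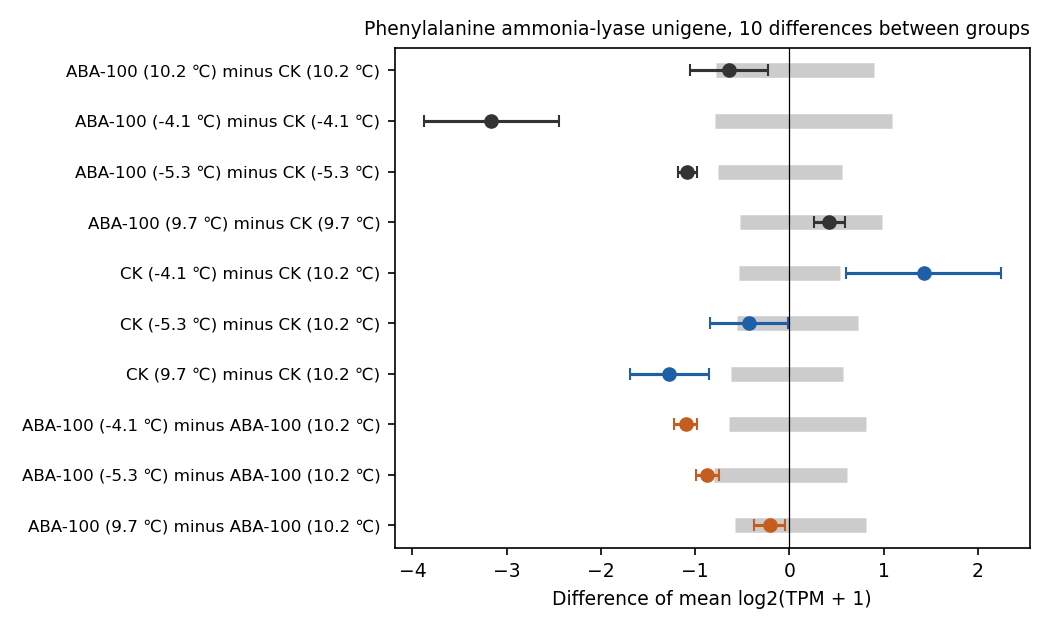
Difference of mean log2(TPM + 1) of the PAL unigene for 10 pairs of groups (points, with bars of 1 SE), with grey bars from the 5th to the 95th percentile of all 21523 unigenes kept. ABA-100 (-4.1 ℃) minus CK (-4.1 ℃) lies at -3.16, outside its grey bar, and ABA-100 (9.7 ℃) minus CK (9.7 ℃) at 0.42, inside it.

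The comparison with 10.2 ℃ within each treatment follows the leaves through the frost, and the 3 comparisons of a treatment share their 10.2 ℃ libraries. In CK the difference at -4.1 ℃ was 1.43 (SE 0.82), a mean 3.57-fold and a median 2.51-fold above those at 10.2 ℃. The groups overlapped, at 9.65 against 10.78 TPM. Without CK (10.2 ℃) replicate 3 they did not, and without CK (-4.1 ℃) replicate 3 the difference was 0.71. At -5.3 ℃ the CK difference was -0.43 (SE 0.41) with overlapping groups. The medians were 4.26 TPM at -5.3 ℃ and 4.15 TPM at 10.2 ℃, in the opposite order to the means, and without CK (10.2 ℃) replicate 3 the difference was -0.03. At 9.7 ℃ the CK difference was -1.27 (SE 0.42), a mean 3.51-fold lower, and the groups did not overlap, as was so for 17.2% of unigenes in that direction. Without CK (10.2 ℃) replicate 3 the mean was 2.27-fold lower. The CK libraries at -4.1 and -5.3 ℃ entered the choice of the unigene, so the CK differences at those temperatures are no test.

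In ABA-100 the unigene was lower at both freezing samplings than before spraying. At -4.1 ℃ the difference was -1.10 (SE 0.12), a mean 3.28-fold lower, with no overlap against a background of 13.0% of unigenes in that direction. At -5.3 ℃ it was -0.87 (SE 0.12), a mean 2.45-fold lower, with no overlap against 14.6%. The ABA-100 libraries at -4.1 and -5.3 ℃ entered the choice of the unigene, so these differences with their SEs are no test. At 9.7 ℃ the difference was -0.21 (SE 0.16) and the groups overlapped, but without ABA-100 (9.7 ℃) replicate 1, or with either other scaling, they did not. The difference was -0.32 without that library, -0.11 without ABA-100 (10.2 ℃) replicate 2 and -0.10 without ABA-100 (9.7 ℃) replicate 3.

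The spread between replicates of the unigene came mostly from 2 libraries. Its coefficient of variation (SD over mean) was 96.0% in CK (-4.1 ℃), 61.2% in CK (10.2 ℃) and 11.6% to 20.3% in the other 6 groups. CK (-4.1 ℃) replicate 3 was at 4.73 times the mean of its closest pair, and 0.465% of unigenes were as far above theirs. CK (10.2 ℃) replicate 3 was at 2.64 times its pair, with 1.99% of unigenes as far. The third library was at 0.707 to 1.35 times its pair in the other 6 groups. Over all 8 groups it lay outside the range of the pair in 6, above it in 3 and below it in 3, and within the closest pairs the higher value was 1.01 to 1.38 times the lower.

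**Figure D3:**
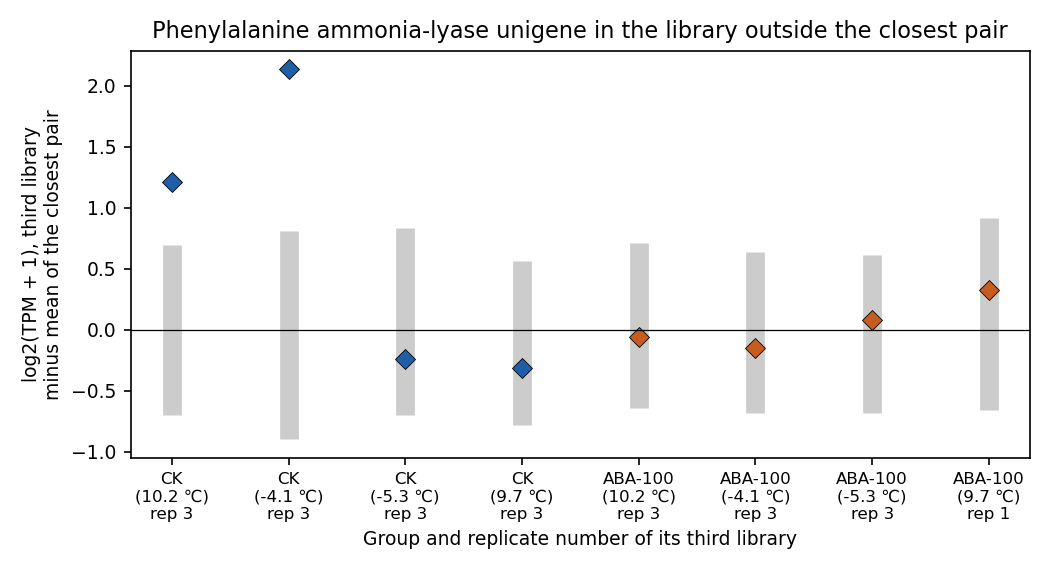
Log2(TPM + 1) of the PAL unigene in the library outside the closest pair of its group, minus the mean of that pair (diamonds, CK in blue and ABA-100 in orange), with grey bars from the 5th to the 95th percentile of the unigenes kept. CK (10.2 ℃) replicate 3 at 1.21 and CK (-4.1 ℃) replicate 3 at 2.14 lie above their grey bars, and the other 6 lie inside.

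Pooled over groups, the within-group SD of log2(TPM + 1) was 0.521, against a median of 0.218 among 2316 unigenes with a mean within 0.5 log2 units, and 86.4% of those had a smaller SD. Without CK (-4.1 ℃) replicate 3 the SD was 0.294, at the 71.0th percentile. With CK (10.2 ℃) replicate 3 also left out it was 0.150, at the 28.9th percentile. The cause of the high values in these libraries was not tested.

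The unigenes whose pattern was most like that of PAL were sought by Pearson r of log2(TPM + 1) over the 24 libraries, among 21522 unigenes. Libraries of a group share their conditions and all unigenes share the libraries, so r is a description. An r of 0.8 or more was found for 63 unigenes and of -0.8 or less for 28, with a median of 0.13. The highest values were 0.896 for DN2919_c0_g1, 0.889 for DN8422_c0_g1, 0.877 for DN6141_c0_g1, 0.877 for DN5011_c0_g2 and 0.875 for DN3994_c0_g1. All 5 were highest in CK (-4.1 ℃) replicate 3, the library where PAL was highest, which is close to given by their choice on r. Without that library the r values were 0.847, 0.774, 0.817, 0.749 and 0.874 in the same order. Of the 5, 0 then stayed among the first 5, and 22 of the 63 unigenes still reached 0.8. The number of unigenes at 0.8 or more was then 105, so that other unigenes took the place of most of the 63.

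DN2919_c0_g1 ranged from 29.5 to 62.3 TPM, DN6141_c0_g1 from 52.0 to 120 TPM and DN3994_c0_g1 from 28.3 to 53.2 TPM. DN8422_c0_g1 ranged from 11.5 to 28.5 TPM and DN5011_c0_g2 from 0.18 to 15.4 TPM. Apart from DN5011_c0_g2, they varied by a smaller fold between their lowest and highest library than PAL did. The lowest r values were -0.892 for DN9858_c0_g1 and -0.880 for DN7327_c0_g1. The other hubs that the study lists with PAL in MEgrey were less alike, at an r of 0.492 for DN1524_c0_g1 and -0.358 for DN3196_c0_g1.

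**Figure D4:**
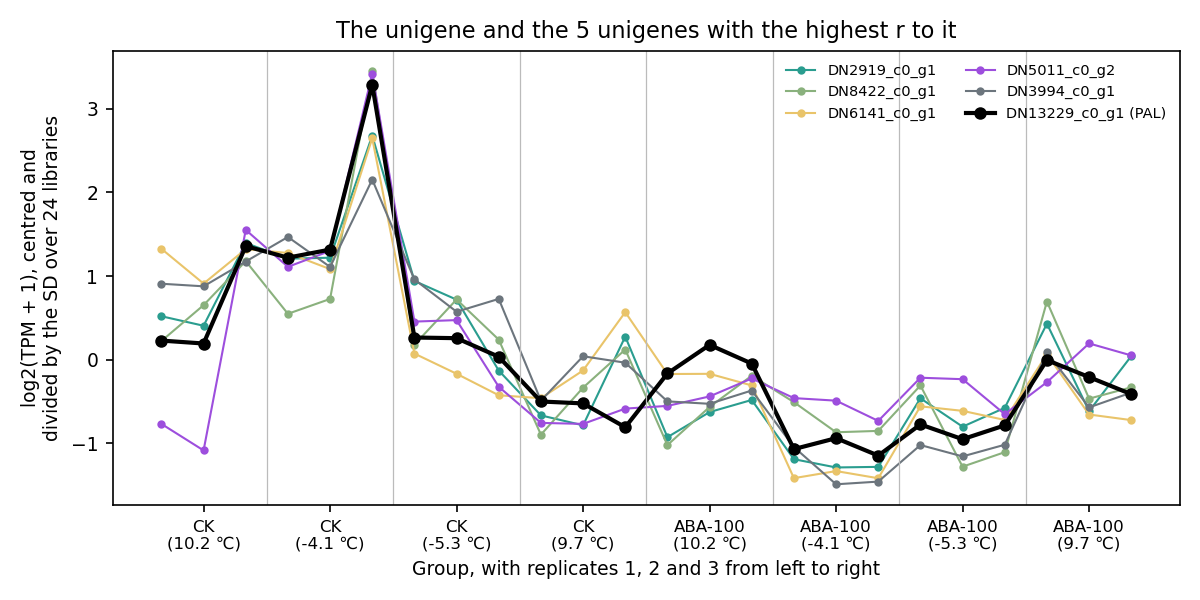
Log2(TPM + 1) of the PAL unigene (black) and of the 5 unigenes with the highest r to it, each centred and divided by its SD over the 24 libraries, by group with replicates 1, 2 and 3 from left to right. All 6 peak in CK (-4.1 ℃) replicate 3, which for the 5 is close to given by their choice on r.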

How the data were processed

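SeqPrep and Sickle were used by the authors for read trimming, Trinity for assembly and RSEM for abundance. The table deposited by the authors holds TPM, in which a value depends on all others of its library since the total is fixed. No counting error can be given. Samples were grouped by their labels.

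The unigene and the lists were chosen with earlier results of these data known. Values were taken as log2(TPM + 1) over unigenes that reached 1 TPM in 3 or more libraries. The unigenes named are PAL, those of its Trinity cluster, the 5 with the highest and 2 with the lowest r, the 3 with the highest r of deviations from group means, and the hubs listed with it. The 2 unigenes of the label check were added after their values were seen.

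Alternatives were pseudocounts of 0.1 and 5, no filter, median-of-ratios scaling, quantile normalization, group medians, Spearman correlation, and leaving out each library. Counting the closest pair of a group once and taking the replicate number as a block were chosen after seeing the data. The calculations were checked on simulated data. Python 3.11.15, pandas 2.3.3, scipy 1.17.1 and matplotlib 3.10.9 were used.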

Additional observations from a re-analysis of the deposited data

Results flagged for a closer look

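The difference between ABA-100 and CK in log2(TPM + 1) of the PAL unigene was -0.64 at 10.2 ℃, -3.16 at -4.1 ℃, -1.08 at -5.3 ℃ and 0.42 at 9.7 ℃. Every ABA-100 library was below every CK library at the first 3 samplings and above every CK library at 9.7 ℃, except that the groups overlapped at 10.2 ℃ with median-of-ratios scaling and at 10.2 and 9.7 ℃ with quantile normalization. At 10.2, -4.1 and -5.3 ℃, 36.4%, 27.9% and 34.3% of the unigenes kept had non-overlapping groups with ABA-100 lower. At 9.7 ℃, 22.4% had non-overlapping groups with ABA-100 higher. The difference at 9.7 ℃ was higher than at 10.2 ℃ by 1.06 (SE 0.45), than at -4.1 ℃ by 3.59 (SE 0.73) and than at -5.3 ℃ by 1.51 (SE 0.19), values given with no test because the unigene was chosen on the freezing contrasts.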

How the results depend on the processing

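The 10 differences between groups were given 130 alternative values in all. Of these, 117 moved by less than 1 SD between replicates, 12 moved further and 1 changed sign. The 117 include the values with the replicate number as a block, which equal the main values by construction and could not move. The SD is that of the groups compared, so a difference with a wide spread could change much and still count among the 117. CK (-4.1 ℃) minus CK (10.2 ℃) counted so at 0.71 without CK (-4.1 ℃) replicate 3, against 1.43 with it. CK (-5.3 ℃) minus CK (10.2 ℃) counted so at -0.03 without CK (10.2 ℃) replicate 3, against -0.43 with it. With a pseudocount of 5, ABA-100 minus CK was -1.92 at -4.1 ℃, -0.50 at -5.3 ℃ and 0.19 at 9.7 ℃. With the same pseudocount CK (9.7 ℃) minus CK (10.2 ℃) was -0.68, and ABA-100 minus its 10.2 ℃ level was -0.47 at -4.1 ℃ and -0.39 at -5.3 ℃. With a pseudocount of 0.1, ABA-100 minus CK at -5.3 ℃ was -1.49, and ABA-100 minus its 10.2 ℃ level was -1.62 at -4.1 ℃ and -1.23 at -5.3 ℃. A larger pseudocount shrinks differences of low values by construction. ABA-100 minus CK at -5.3 ℃ was -0.95 with median-of-ratios scaling and -0.95 with quantile normalization, which gave 0.22 at 9.7 ℃. With group medians CK (-5.3 ℃) minus CK (10.2 ℃) changed sign to 0.030. Of the 5 unigenes most like PAL, 4 stayed among the first 5 with a pseudocount of 0.1 and 4 with median-of-ratios scaling, 1 with Spearman correlation, 0 with group means and 0 to 5 without 1 library. Without the filter, non-overlapping groups in the direction of PAL made up 25.9%, 20.3%, 23.9% and 18.0% of unigenes at 10.2, -4.1, -5.3 and 9.7 ℃. Nothing ties a replicate number to a seedling, and deviations from the group means of same-numbered libraries correlated at -0.03 to 0.28 over unigenes, with no comparison where every pair was above 0.1. With the number as a replicate block, added after seeing the data, CK (-4.1 ℃) minus CK (10.2 ℃) was 1.05, 1.19 and 2.04 (mean 1.43, SE 0.31), and 8 of the 10 differences had 1 sign in every number. Values near 1 TPM rest on an unknown number of reads.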

Other observations

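Within groups, the unigenes that deviated most like PAL were DN1207_c0_g2 (r 0.960 of deviations from the group means), DN4818_c0_g1 (0.951) and DN14571_c0_g1 (0.933). In CK (-4.1 ℃) DN1207_c0_g2 was at 13.8, 15.25 and 34.82 TPM in replicates 1, 2 and 3. DN4818_c0_g1 was there at 21.57, 21.97 and 51.25 TPM, and DN14571_c0_g1 at 25.5, 24.72 and 42.77 TPM. All 3 were higher in the library where PAL was highest, which is close to given by their choice on deviations. Without that library the r of deviations was 0.870, 0.840 and 0.774 in the same order. Over the 24 libraries DN1207_c0_g2 had an r of -0.23 to PAL. Of 172 unigenes with a within-group r of 0.8 or more, 11 still reached it without CK (-4.1 ℃) replicate 3.

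The 8 groups held 83.1% of the variance of log2(TPM + 1) of PAL, against a median of 64.0% over the unigenes kept. Treatment held 29.0% (median 12.9%), temperature 14.5% (median 15.0%) and their interaction 39.6%. The library codes begin with a letter whose meaning the labels do not give, and A and B are CK libraries while C and D are ABA-100 libraries. PAL ranged from 4.02 to 47.48 TPM in libraries coded A, from 1.41 to 4.29 in B, from 0.88 to 3.96 in C and from 1.17 to 3.34 in D. The letter held 57.5% of the variance of PAL (median 29.2%), and it cannot be told apart from treatment and temperature. The number after the letter, also of unstated meaning, held 0.0323% (median 3.05%). The codes have 4 letters and 2 numbers, as the labels have 4 temperatures and 2 treatments, and each letter occurs with both numbers. Whether the codes stand for another assignment of the groups is not stated and was not tested. The differences between groups given here hold for the labels only.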
